A study of Mus musculus with 2 samples.

Results

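The 10 genes described here are regulators of hair follicle stem cells and 1 surface marker of them: Sox9, Lhx2, Nfatc1, Tcf7l1, Tcf7l2, Foxc1, Nfib, Tbx1, Runx1 and Cd34. They were taken by symbol from the 32285 genes of the deposited tables, and all 10 were found. Dorsal skin of male C3H/HeN mice, shaved at 7 weeks of age and collected at 9 weeks, was dissociated whole, and the skin of 15 mice was pooled into 1 droplet library for each group. The control group (Con) was given vehicle, and the androgenetic alopecia model (TP) was given testosterone propionate under the skin at 0.5 mg/day. After filtering, 39076 control cells with 106431408 unique molecular identifiers (UMIs, each standing for a captured RNA molecule) and 18542 TP cells with 132601906 UMIs were left, with medians of 2047 and 4815 UMIs per cell. With a single pooled library in each group there was no test and no p-value. Every interval is a 95% interval that covers counting error only, and treatment and library cannot be told apart. The libraries shared 303 barcodes, 182 of them among kept cells.

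Hair follicles cycle through growth, regression and rest, and each new growth phase starts from stem cells kept in the bulge, the part of the outer root sheath below the sebaceous gland. Sox9, Lhx2, Tcf7l1, Tcf7l2, Nfatc1, Foxc1, Nfib, Tbx1 and Runx1 encode transcription factors that set bulge cell identity, hold the cells in rest or prepare them for growth. Cd34 encodes a surface protein by which mouse bulge cells are often sorted. These genes are not private to the follicle: Nfatc1 also acts in endothelial and immune cells, Runx1 in blood cells, Tbx1 in lymphatic vessels, and CD34 marks fibroblasts and vessels.

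Start regions of 5 of the genes are printed, to show the sequence in front of 3 genes that were highest in outer bulge cells in both libraries (Lhx2, Tbx1 and Tcf7l2) and of 2 that went opposite ways between outer bulge cells with and without Sox9 (Foxc1 and Runx1). Each is the 250 bases before an annotated start, 5′ to 3′ on the strand of the gene, from RefSeq (GRCm38.p6). The set of start regions used held 7 of the 10 genes. They lie at chr2:38339031-38339280 (+) for Lhx2, chr16:18590672-18590921 (−) for Tbx1, chr19:55741560-55741809 (+) for Tcf7l2, chr13:31806396-31806645 (+) for Foxc1 and chr16:92826075-92826324 (−) for Runx1. Capitals mark matches on either strand to the letters searched.
Lhx2: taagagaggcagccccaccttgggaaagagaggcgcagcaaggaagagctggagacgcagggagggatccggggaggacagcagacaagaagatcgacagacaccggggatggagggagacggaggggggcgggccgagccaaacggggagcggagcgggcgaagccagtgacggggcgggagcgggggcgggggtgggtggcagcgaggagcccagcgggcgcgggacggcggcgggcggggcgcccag
Tbx1: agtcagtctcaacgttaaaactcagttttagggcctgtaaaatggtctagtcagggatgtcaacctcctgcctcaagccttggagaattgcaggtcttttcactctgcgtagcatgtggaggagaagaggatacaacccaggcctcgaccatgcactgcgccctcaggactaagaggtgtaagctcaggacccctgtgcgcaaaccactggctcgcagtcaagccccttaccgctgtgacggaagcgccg
Tcf7l2: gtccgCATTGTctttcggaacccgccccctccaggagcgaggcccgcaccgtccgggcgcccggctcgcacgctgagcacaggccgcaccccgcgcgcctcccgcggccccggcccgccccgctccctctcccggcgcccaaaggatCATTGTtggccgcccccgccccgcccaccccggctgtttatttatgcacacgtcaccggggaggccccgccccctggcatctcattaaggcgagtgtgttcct
Foxc1: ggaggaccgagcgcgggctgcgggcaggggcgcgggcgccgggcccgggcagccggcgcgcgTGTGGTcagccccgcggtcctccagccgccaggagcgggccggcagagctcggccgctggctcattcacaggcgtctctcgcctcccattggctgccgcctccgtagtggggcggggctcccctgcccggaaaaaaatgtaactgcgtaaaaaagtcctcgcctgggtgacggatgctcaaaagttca
Runx1: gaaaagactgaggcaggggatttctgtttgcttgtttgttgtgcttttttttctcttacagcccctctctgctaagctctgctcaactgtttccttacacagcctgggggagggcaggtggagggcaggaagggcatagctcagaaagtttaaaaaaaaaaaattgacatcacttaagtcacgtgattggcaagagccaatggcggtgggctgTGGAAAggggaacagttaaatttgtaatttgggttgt
The letters searched for SOX factors were ACAATG, and the Tcf7l2 region held 2 matches, while 10.7% of 32851 start regions of this length held at least 1. The letters searched for RUNX factors were TGTGGT, with 1 match in the Foxc1 region and a match in 14% of all regions. The letters searched for NFAT factors were TGGAAA, with 1 match in the Runx1 region and a match in 18.6% of all regions. The letters CTTTGA for TCF/LEF factors (in 13.8% of regions), the box letters TATAAA (in 12.4%), the LIM homeobox motif (in 0.24%) and the NFI motif (in 0.0365%) had no match in the regions printed, and the Lhx2 and Tbx1 regions held none of the motifs. The matches did not overlap with those of another motif. The Lhx2, Tcf7l2 and Foxc1 regions were rich in G and C, at 72.8%, 72.8% and 70.8%, against a median of 52.4% over all regions. Lhx2, Tbx1, Tcf7l2 and Runx1 each had another start region that is not printed, so these statements hold for the printed starts only. The other Tcf7l2 region had a TATAAA match, no SOX match and 40.8% G and C. The other Runx1 region had 67.6% G and C, against 45.6% in the printed one. A match is a run of letters and not a site shown to be bound.

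The cells fell into 32 clusters. Of these, 22 could be given a class name from markers, in 13 classes, and each name stands for cells like that type. The 10 genes were left out of the clustering. They were chosen as known regulators, so differences between populations are descriptions. Unnamed clusters are called by their leading genes: the Ntn1 cluster (led by Ntn1, Tmtc1, Sox5 and Eda), the histone cluster (led by Hist1h2ae and other histone genes of dividing cells), the replication cluster (led by Ung, with Mcm3 and Uhrf1), the Cdh13 cluster (led by Cdh13 and Sox6) and the Cd74 cluster (immune cells led by Cd74). The outer bulge class was a single cluster led by Gm973, Lgr5 and Hmcn1. Lgr5, a receptor of follicle stem cells, stood there at 599 and 758 UMIs per 1000000 UMIs of the population (CPM) in control and TP, against 10.6 and 4.66 in basal cells of the interfollicular epidermis (IFE). In the Ntn1 cluster Lgr5 was at 225 and 414 CPM. Krt15 alone did not set the class apart, at 1023 and 1181 CPM against 3006 and 2627 in basal IFE, and the bulge marker Angptl7 was near 0, at 3.24 and 7.11 CPM. Summed, the 6 outer bulge markers were at 2412 and 2806 CPM in the outer bulge class, below basal IFE at 3370 and 2952. The class held 632 control cells (1.62%) and 1462 TP cells (7.88%), 4.88 times the share.

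Patterns over the populations were alike in the libraries: over the 13 named classes, Pearson's r of log2(CPM + 1) between control and TP ran from 0.876 for Sox9 to 0.978 for Tcf7l1. The classes share their libraries, so this is a description. Tag counts from transcript ends carry no length scale, so levels are compared between populations for 1 gene and not between genes.

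**Figure D1:**
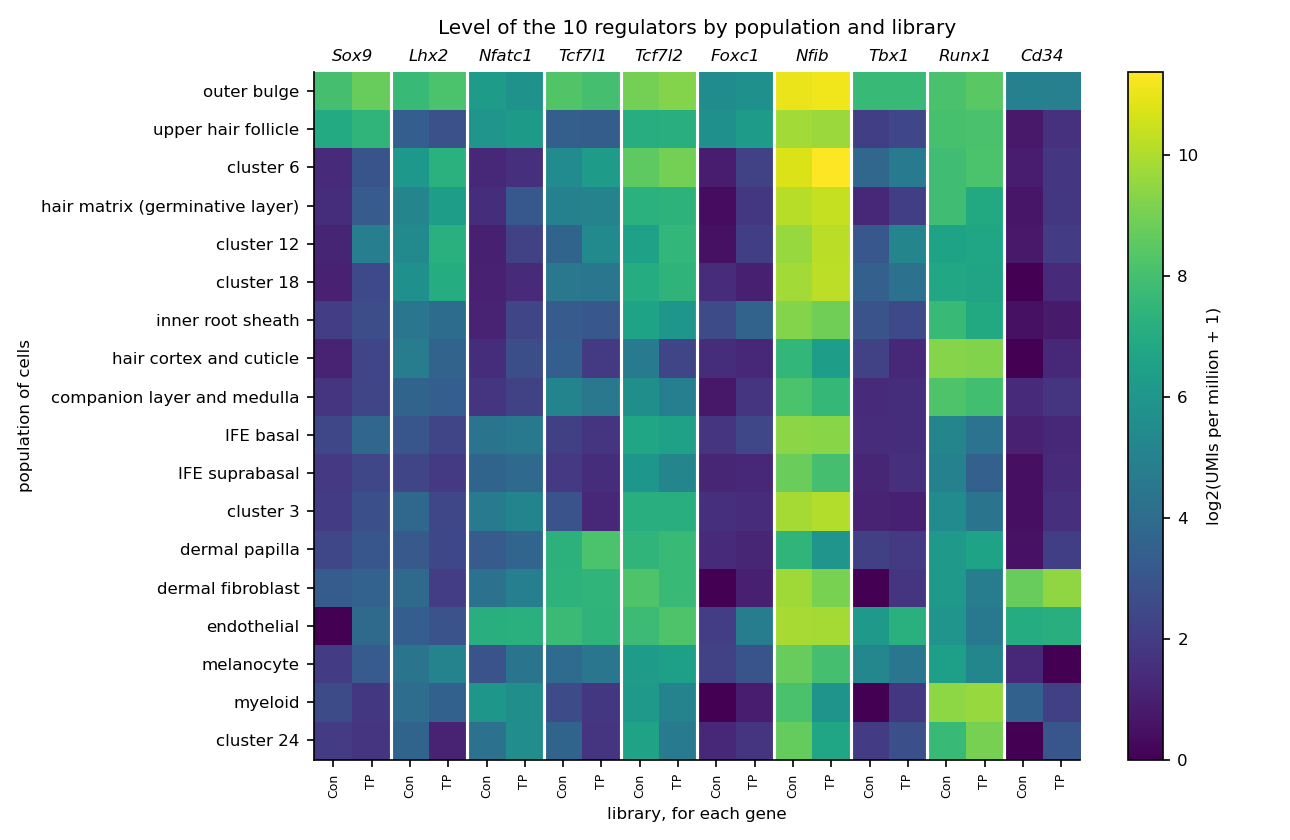
Level of each of the 10 genes, as log2(CPM + 1) by colour, in the 13 named classes and 5 unnamed clusters (rows; cluster 6 is the Ntn1, 12 the histone, 18 the replication, 3 the Cdh13 and 24 the Cd74 cluster), with control and TP side by side for each gene (columns). Outer bulge cells have the highest level of Sox9, Lhx2, Tcf7l2 and Tbx1 in both libraries, while Cd34 is highest in dermal fibroblasts and Runx1 in myeloid cells.

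Sox9 (ENSMUSG00000000567, chr11:112782210-112787757), which specifies bulge stem cells, was held most closely by follicle epithelium. Outer bulge cells had 259.5 CPM in control (235 to 286) and 423 in TP (408 to 438), so that the level was higher in TP (TP/Con 1.63, 1.47 to 1.81). Upper hair follicle cells, the epithelium above the bulge, followed at 121 and 171 CPM (TP/Con 1.41, 1.25 to 1.6). The 6 markers of that class, which the naming used, summed to 11020 and 16800 CPM in it (6 of 6 higher in TP), and their part in its ratios for Sox9, Foxc1 and Nfatc1 was not tested. Both classes stood clear of each other and of all other populations in both libraries. They carried 38.7% and 31.8% of all Sox9 UMIs in control and 57.1% and 24.8% in TP. The next population was at 8.82 CPM in control (dermal fibroblasts, 5 UMIs) and 28 in TP (the histone cluster, 291 UMIs). The Cd74 cluster, of immune cells, had 2 Sox9 UMIs in each library, or 2.97 and 2.38 CPM. Over 26 profiles (13 classes in 2 libraries), the genes with the pattern most like Sox9 were Gsdma3 (r = 0.914) and Upb1 (r = 0.845).

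Foxc1 (ENSMUSG00000050295, chr13:31806646-31810635), a factor that restrains activated bulge cells, was highest in upper hair follicle cells in both libraries. Upper hair follicle cells had 50.6 and 75.6 CPM (TP/Con 1.49, 1.24 to 1.81) and outer bulge cells 45.3 and 51.1 (TP/Con 1.13, 0.872 to 1.48). Their intervals overlapped in control, while in TP the upper hair follicle was higher. Outside the epithelium, the cluster led by Myh11 and Acta2 had 48.4 and 25.3 CPM (8 and 14 UMIs), with an interval in control that overlapped that of the outer bulge, and endothelial cells had 3.2 and 27 (1 and 21 UMIs). Nfatc1 (ENSMUSG00000033016, chr18:80606205-80713071), a factor of stem cell rest, was at 76.4 and 56 CPM in outer bulge cells (TP/Con 0.733, 0.596 to 0.908) and at 60.1 and 72.2 in upper hair follicle cells (TP/Con 1.2, 1.01 to 1.44). The upper hair follicle was therefore above the outer bulge in TP, and the intervals overlapped in control. Its highest level was in endothelial cells, at 138 and 149 CPM (TP/Con 1.08, 0.756 to 1.57). Within these, the cluster led by Ccl21a, with the lymphatic gene Prox1, had 263 and 219.7 CPM, and the cluster led by Cd36, with Flt1 and Plvap, had 53.5 and 39.3. The patterns most like Foxc1 were those of Gsdma3 (r = 0.806) and the upper follicle keratin Krt79 (r = 0.795), and those most like Nfatc1 were Lifr (r = 0.868) and Pdlim1 (r = 0.851).

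Lhx2 and Tbx1, like Tcf7l1 and Cd34 described further on, were high in the outer bulge and low in the upper follicle. Lhx2 (ENSMUSG00000000247, chr2:38339271-38369737), a LIM homeobox factor that keeps bulge cells undifferentiated, was at 203 and 282 CPM in outer bulge cells (TP/Con 1.39, 1.24 to 1.57) and at 9.53 and 5.99 in upper hair follicle cells. Tbx1 (ENSMUSG00000009097, chr16:18580979-18590671), a T-box factor linked to stem cell self-renewal, was at 211 and 206 CPM in outer bulge cells (TP/Con 0.975, 0.865 to 1.1) and at 3.3 and 4.42 in the upper follicle. The outer bulge carried 12.9% of Lhx2 UMIs in control and 40.6% in TP, and 38% and 62.4% of Tbx1 UMIs. Lhx2 was also detected at 66.7 and 152 CPM in the Ntn1 cluster, 51.8 and 133 in the replication cluster and 35.2 and 79 in the Shh-marked hair matrix, where Tbx1 was at 12.4 and 23.7, 10.1 and 18.1 and 1.52 and 3.27. Outside the epithelium Tbx1 was highest in endothelial cells, at 67.2 and 150.2 CPM (TP/Con 2.23, 1.4 to 3.74). These UMIs lay in the Ccl21a cluster, with 21 of 21 in control and 114 of 117 in TP. Within that cluster the level was 168 and 241 CPM (TP/Con 1.44, 0.897 to 2.41), and the cluster held 56 of 120 endothelial cells in control and 160 of 224 in TP. With 15% of barcodes removed as doublets the endothelial ratio of Tbx1 turned to 0.872. Lhx2 was most like Alcam (r = 0.80) and Mtmr7 (r = 0.793), and Tbx1 most like Slc38a4 (r = 0.844) and Rasl12 (r = 0.843).

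Tcf7l1 and Tcf7l2 encode the TCF3 and TCF4 proteins, which bind WNT target genes and repress them in the absence of β-catenin. Tcf7l2 (ENSMUSG00000024985, chr19:55741797-55933659) was highest in outer bulge cells, at 507 and 608 CPM (TP/Con 1.2, 1.11 to 1.29), followed by the Ntn1 cluster at 378 and 513 (TP/Con 1.36, 1.25 to 1.47). Tcf7l1 (ENSMUSG00000055799, chr6:72626371-72789045) was highest in outer bulge cells in control, at 311 CPM, and lower there in TP, at 258 (TP/Con 0.83, 0.75 to 0.92), though higher as a mean of ln values over cells. In the dermal papilla, the signalling mesenchyme at the follicle base, Tcf7l1 was at 156 and 285 CPM (TP/Con 1.83, 1.73 to 1.94), so that in TP the papilla stood above the outer bulge. Markers moved in the papilla class as well: its own 6 summed to 10090 and 6659 CPM (0 of 6 higher in TP) and the 7 dermal fibroblast markers to 1298 and 2482 (5 of 7), and their part in the Tcf7l1 values was not tested. All 3 papilla clusters had more Tcf7l1 in TP. The cluster led by Ndnf, with 2295 control and 318 TP cells, had 118 and 177 CPM (TP/Con 1.5, 1.28 to 1.75). The cluster led by Sostdc1, with 1812 and 637 cells, had 190 and 303 CPM (TP/Con 1.6, 1.47 to 1.73). The cluster led by the agouti gene a, with 190 and 539 cells, had 153 and 302 CPM (TP/Con 1.97, 1.63 to 2.4). Dermal fibroblasts (160.5 and 174 CPM; TP/Con 1.08, 0.873 to 1.36) and endothelial cells (214 and 168; TP/Con 0.784, 0.58 to 1.07) also held Tcf7l1, while upper hair follicle cells had 9.9 and 9.24 CPM. Tcf7l1 was most like Pxdn (r = 0.917) and Nrep (r = 0.912), and Tcf7l2 most like Svil (r = 0.892) and Pard3b (r = 0.892).

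Nfib (ENSMUSG00000008575, chr4:82290173-82506751), a nuclear factor I protein that coordinates epithelial and melanocyte stem cells, was broad, with its highest levels in the follicle. It was at 2080 and 2223 CPM in outer bulge cells (TP/Con 1.07, 1.03 to 1.11) and at 1767 and 2650 in the Ntn1 cluster (TP/Con 1.5, 1.45 to 1.56), which stood below the outer bulge in control and above it in TP. The hair matrix followed at 1130 and 1345 CPM (TP/Con 1.19, 1.13 to 1.26). The Cd74 cluster, its check on free RNA, had 409.9 and 104 CPM. Suprabasal IFE was near that check in control and above it in TP, at 439 and 255 CPM (TP/Con 0.581, 0.565 to 0.598). The dermal papilla (170.2 and 59.9 CPM) and myeloid cells (271 and 58) lay below it in both libraries, and no difference in expression is read there. Of the keratinocyte markers there, the 6 of the hair matrix summed to 112 and 43.6 CPM in the papilla, 138 and 16.7 in myeloid cells and 219.8 and 45.3 in the Cd74 cluster. The 6 of basal IFE summed to 959 and 685 CPM in the papilla, and were higher in TP in myeloid cells, at 2072 and 2290, and in the Cd74 cluster, at 1350 and 1823. The part of RNA from other cells in the Nfib values was not tested. Nfib was most like Galnt18 (r = 0.878) and Pitpnm2 (r = 0.86).

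Runx1 (ENSMUSG00000022952, chr16:92601466-92826074), a blood cell factor that also promotes the entry of bulge cells into growth, was highest outside the stem cell compartment. Myeloid cells had 685 and 778 CPM (TP/Con 1.14, 0.943 to 1.38), and hair cortex and cuticle cells 639.5 and 596 (TP/Con 0.931, 0.83 to 1.04). The outer bulge was at 275 and 347 CPM (TP/Con 1.26, 1.14 to 1.4) and the upper hair follicle at 265 and 275 (TP/Con 1.04, 0.952 to 1.13). Runx1 was lower in TP in the hair matrix, at 233 and 119.5 CPM (TP/Con 0.512, 0.434 to 0.603), and in the inner root sheath, at 207 and 119.5 (TP/Con 0.578, 0.542 to 0.616). In the hair matrix the 7 dermal fibroblast markers summed to 746 and 1796 CPM (6 of 7 higher in TP), the 6 upper hair follicle markers to 343 and 864 (5 of 6) and the 6 basal IFE markers to 2010 and 3087 (6 of 6), and their part in the Runx1 ratio was not tested. Endothelial cells, the class set as its check on RNA free in the droplets, had 60.8 and 23.1 CPM (19 and 18 UMIs). Basal IFE (34.9 and 19.3 CPM; TP/Con 0.555, 0.45 to 0.685) and suprabasal IFE (30.6 and 10.2; TP/Con 0.333, 0.294 to 0.376) lay at or below that check in both libraries, so their ratios are not read as a difference in expression. At 1000 UMIs per cell, a Runx1 UMI was in 3.89% and 0.933% of suprabasal cells and in 4.44% and 1.67% of endothelial cells. The inner root sheath clusters led by Krt73, Knl1 and Prr9 had TP/Con of 0.58, 0.454 and 0.429, while the cluster led by Krt71 had 42.9 and 56.5 CPM (TP/Con 1.32, 1.07 to 1.61), in control below the check. Runx1 was most like Epg5 (r = 0.819) and Atg7 (r = 0.812).

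Cd34 (ENSMUSG00000016494, chr1:194938821-194961292) was mostly a gene of the dermis in these libraries. Dermal fibroblasts had 419.7 and 726 CPM (238 and 3589 UMIs; TP/Con 1.73, 1.52 to 1.98) and carried 62% and 86.8% of all Cd34 UMIs. The 7 dermal fibroblast markers summed to 47580 and 83070 CPM in the same class (6 of 7 higher in TP), and the median depth of its cells was 2062 and 6684 UMIs. Their part in the Cd34 ratio was not tested. Endothelial cells had 131 and 139 CPM (TP/Con 1.06, 0.731 to 1.55), here from the Cd36 cluster, at 219 and 347 CPM (TP/Con 1.58, 1.09 to 2.33), while the Ccl21a cluster held 0 and 2 UMIs. Outer bulge cells were next with 31.1 and 30.1 CPM (48 and 216 UMIs; TP/Con 0.969, 0.706 to 1.35). No other keratinocyte population reached 3 CPM in either library, so among epithelial populations Cd34 was highest in the outer bulge. After thinning to 1000 UMIs per cell, 2.48% of control and 2.97% of TP outer bulge cells had a Cd34 UMI, against 0.0729% and 0.156% of inner root sheath cells. Median depths before thinning were 1860 and 3255 UMIs in the outer bulge and 2080 and 4401 in the inner root sheath. Cd34 was most like Ace (r = 0.91) and Kcnj8 (r = 0.901).

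**Figure D2:**
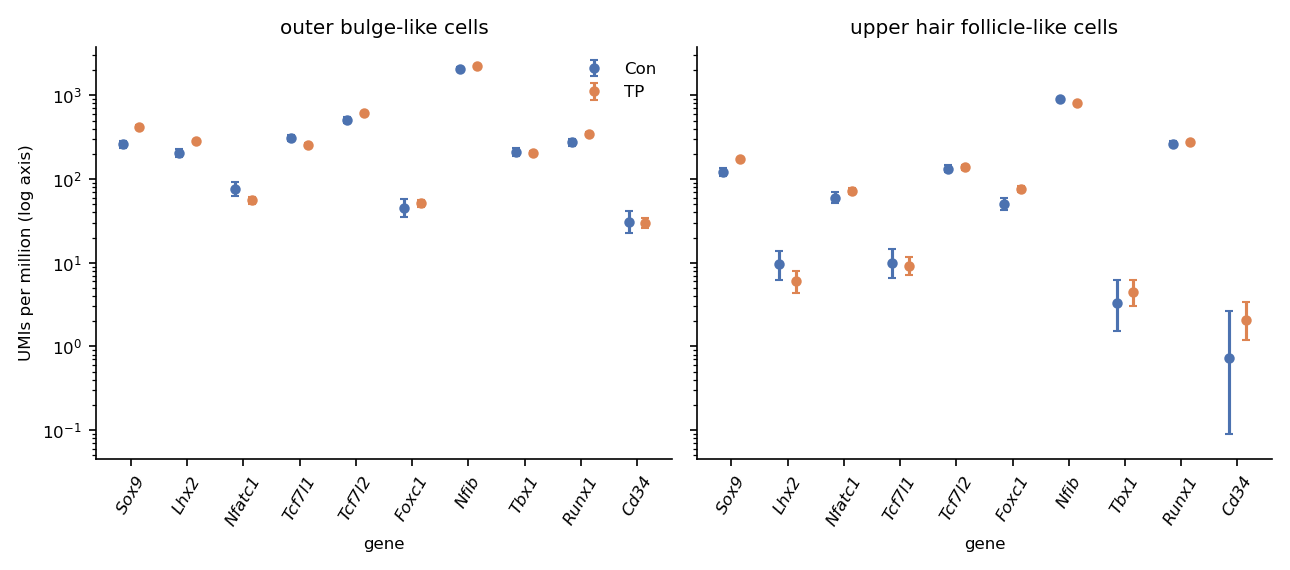
Level of the 10 genes in outer bulge-like (left) and upper hair follicle-like cells (right), in CPM on a log axis; points are the control and TP libraries and bars are exact Poisson 95% intervals. Lhx2, Tcf7l1, Tbx1 and Cd34 are more than 10 times lower in the upper follicle, while Foxc1 and Nfatc1 lie close to their outer bulge levels.

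Within the outer bulge, differences between the libraries were small for each of the 10 genes. All 10 reached 50 UMIs there. The interval of TP/Con lay above 1 for 5 of them (Sox9, Lhx2, Tcf7l2, Nfib and Runx1), against 11.4% of 10660 genes tested, and below 1 for 2 (Nfatc1 and Tcf7l1), against 19.0%. None differed 2-fold, which 2.38% of genes did upward and 3.55% downward. The median log2 ratio was 0.13 for the 10 genes and −0.10 for all genes tested. Averaged over cells as ln(counts per 10000 + 1) instead, all 10 were higher in TP. No share of all genes higher by this measure is given beside that count. Median depth in the class was 1860 UMIs in control and 3255 in TP, and the part of depth in these means was not tested. Other marker lists moved in the class too: the 6 upper hair follicle markers summed to 1885 and 3314 CPM (6 of 6 higher in TP), mostly Krt17 at 1738 and 2671, while Krt79, the upper follicle keratin, was at 47.2 and 425. The 6 dermal papilla markers summed to 93.2 and 22.9. Their part in the members' values was not tested.

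Shares of cells with a UMI were compared at equal depth. Thinned to 1000 UMIs, 19.5% of control and 26% of TP outer bulge cells had a Sox9 UMI. For Lhx2 the shares were 15.1% and 23.8%, and for Tbx1 16.4% and 17.1%, against 0.607% and 0.703% in the inner root sheath. In the Cd74 cluster, 0 of 293 control and 0 of 249 TP cells had a UMI of Sox9 or of Lhx2, which, at 3 counts of the total, allows shares of up to 1.02% and 1.21% of cells with a UMI at this depth. Before thinning that cluster held 2 and 2 UMIs of Sox9 and 8 and 1 of Lhx2. Without thinning the Sox9 shares in the outer bulge were 27.4% and 50%. Thinning left out 108 control and 114 TP outer bulge cells that were shallower.

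Outer bulge cells held UMIs of more of the 10 genes per cell than any other of the populations. At 1000 UMIs they held UMIs of 2.32 of the 10 genes on average in control and 2.61 in TP, against 1.35 and 1.69 in the Ntn1 cluster, the next highest. At least 3 of the 10 were seen in 40.5% of control outer bulge cells (36.2 to 44.8) and 51.7% of TP cells (49 to 54.4). The next highest shares were 10.6% in control (dermal fibroblasts) and 16.6% in TP (the Ntn1 cluster). No number for genes detected independently is set beside these counts, so they do not tell whether the genes go together in a cell.

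Within the class the genes did not go together evenly. Outer bulge cells with a Sox9 UMI numbered 173 of 632 in control and 731 of 1462 in TP. Foxc1 was higher in them, at 84 against 19.4 CPM in control (ratio with over without 4.32, 2.48 to 7.84) and 65.2 against 21.9 in TP (2.98, 2.21 to 4.09). Runx1 was lower in them, at 212 against 318 CPM in control (0.666, 0.538 to 0.821) and 292 against 462 in TP (0.633, 0.585 to 0.686). Nfatc1 was higher in both libraries (1.66, 1.13 to 2.42; 1.4, 1.11 to 1.76), and the intervals of Tcf7l1 and Tcf7l2 held 1 in both. Lhx2 turned between libraries, with a ratio above 1 in control (1.73, 1.38 to 2.18) and below 1 in TP (0.842, 0.768 to 0.923). Split by a Lhx2 UMI instead, Sox9 was higher in the cells with it in both libraries (1.966, 1.605 to 2.413; 1.325, 1.215 to 1.445). The direction for this pair in TP thus depended on the gene used to split the cells, and the turn is not read as a difference between libraries. Of the markers, Krt15 was higher in Sox9-positive cells (2.3 and 1.62 times) and Lgr5 lower (0.767 and 0.822 times). The Sox9-positive cells were deeper, with medians of 2755 against 1661 UMIs in control and 4636 against 2242 in TP, and the part of depth in these ratios was not tested.

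**Figure D3:**
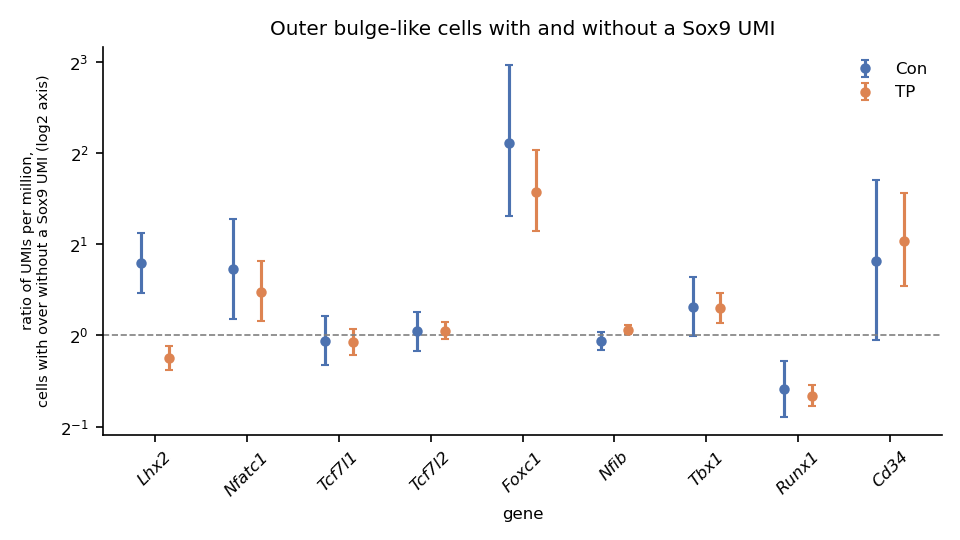
Ratio of each gene's level (CPM) in outer bulge-like cells with a Sox9 UMI over those without, on a log2 axis, for the control and TP libraries; bars are exact 95% intervals for counting error. Foxc1 sits above 1 and Runx1 below 1 in both libraries, and Lhx2 is above 1 in control and below 1 in TP.

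Cells in which the sorting marker Cd34 was seen were few, 40 in control and 144 in TP. They had more Sox9 (1.52, 1.14 to 1.99; 1.71, 1.57 to 1.86) and more Tbx1 (1.66, 1.22 to 2.22; 1.55, 1.36 to 1.75) than the other outer bulge cells. Nfib (1.14; 1.26) and Tcf7l1 (1.34; 1.14) also had intervals above 1 in both libraries. So did the markers Krt15 (2.66; 2.18), Postn (1.33; 1.86) and Lgr5 (1.39; 1.18). Runx1 was lower in the cells with a Cd34 UMI in TP (0.664, 0.583 to 0.752), with an interval that held 1 in control (0.876, 0.621 to 1.21). These cells were deeper as well, with medians of 3501 against 1776 UMIs in control and 5494 against 2966 in TP.

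Over all kept cells, 8 of the 10 genes had an interval of TP/Con above 1, against 28.0% of 17575 genes tested, and 2 had it below 1, against 55.6%. At least 2-fold higher in TP were 5 (8.3% of genes) and none was 2-fold lower (10.2%), while 18.5% of genes differed 2-fold either way. The median log2 ratio was 0.93 for the 10 genes and −0.23 for all genes. TMM scaling moved the median of all genes to 0.02 and the share of 2-fold genes that were higher from 44.8% to 65.9%. In dissociated skin, a change in the number of cells of a type and in RNA per cell cannot be told apart in such a sum.

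Cd34 stood at 3.61 and 31.2 CPM over all kept cells (TP/Con 8.64, 7.78 to 9.62), and Sox9 at 9.74 and 40.1 (TP/Con 4.11, 3.85 to 4.4). Foxc1 at 4.26 and 9.98 CPM (TP/Con 2.34, 2.1 to 2.61), Nfatc1 at 8.93 and 20.4 (TP/Con 2.28, 2.12 to 2.46) and Tbx1 at 8.07 and 17.9 (TP/Con 2.21, 2.05 to 2.4) were the other 2-fold genes. With the cluster shares of either library set in both, none of these 5 was 2-fold higher: the ratios were 1.99 and 1.68 for Sox9, 1.85 and 1.69 for Cd34, 1.62 and 1.39 for Foxc1, 1.47 and 1.15 for Nfatc1 and 1.46 and 1.2 for Tbx1, with control and TP shares. Lhx2 (22.8 and 37.5 CPM; TP/Con 1.65, 1.57 to 1.73) and Tcf7l1 (34.9 and 51.4; TP/Con 1.47, 1.42 to 1.53) differed less. Tcf7l2 was almost level (123 and 127 CPM; TP/Con 1.03, 1.01 to 1.05) and was lower in TP without doublet removal, with all barcodes or without the outer bulge. Runx1 was lower in TP (160.1 and 96.4 CPM; TP/Con 0.602, 0.588 to 0.616). Nfib was slightly lower (626 and 605 CPM; TP/Con 0.966, 0.956 to 0.976) but higher by TMM or DESeq2 scaling, with control cluster shares and as a mean of ln values.

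Such a sum mixes levels within clusters with the share of UMIs that each cluster holds. Of the log2 ratio of Cd34, 2.29 lay in cluster shares and 0.82 in levels within clusters. For Sox9 the parts were 1.17 and 0.87, for Nfatc1 0.82 and 0.37, for Tbx1 0.74 and 0.40, and for Foxc1 0.64 and 0.59. Lhx2 differed from these, with −0.05 in shares and 0.78 within clusters, and Runx1 had −0.47 and −0.26. The share of cells was 2.75 times as high in TP for the upper hair follicle and 6.46 times for dermal fibroblasts, while it was 0.322 times for the inner root sheath and 0.396 times for the Ntn1 cluster. With outer bulge cells left out, a setting added after the data were seen, TP/Con was 3.0 for Sox9 (2.74 to 3.28), 1.4 for Tbx1 (1.26 to 1.56), 1.17 for Lhx2 (1.11 to 1.24) and 0.846 for Tcf7l2 (0.825 to 0.867).

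**Figure D4:**
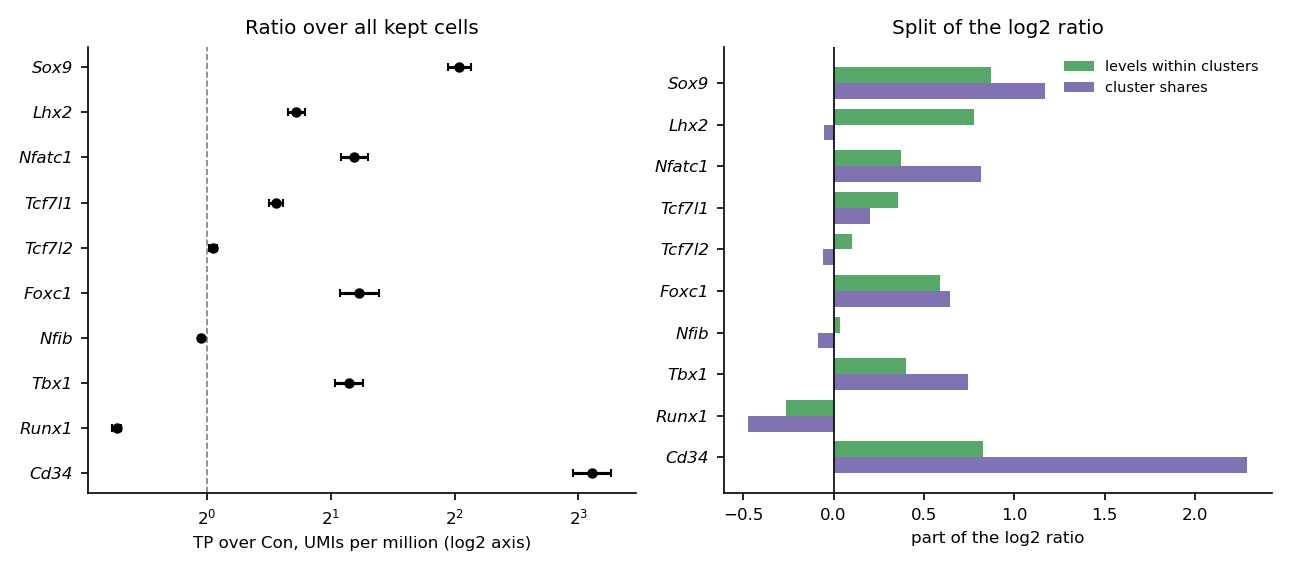
Left, the ratio of CPM over all kept cells, TP over control, on a log2 axis with exact 95% intervals; right, the part of each log2 ratio that lies in levels within clusters and the part in cluster shares, as bars. Cluster shares are the larger part for Cd34, Sox9, Nfatc1, Tbx1, Foxc1 and Runx1, and the within-cluster part is the larger for Lhx2 and Tcf7l1.

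Among populations with at least 50 UMIs of the gene over both libraries, Lhx2 had an interval of TP/Con above 1 in 7 besides the outer bulge and below 1 in 6. TP/Con was 2.28 in the Ntn1 cluster (1.93 to 2.7), 3.45 in the histone cluster (3.05 to 3.91), 2.56 in the replication cluster (2.11 to 3.11) and 2.25 in the hair matrix (1.73 to 2.92). The others were melanocytes, at 1.69, and the unnamed clusters led by Slc30a1 and Selenbp1, at 2.43 and 1.61. Upper hair follicle markers summed to 168 and 339 CPM in the replication cluster (5 of 6 higher in TP) and to 343 and 864 in the hair matrix (5 of 6), and the part of such markers in these ratios was not tested. The interval lay below 1 in basal IFE (0.589), suprabasal IFE (0.684), the dermal papilla (0.563), the inner root sheath (0.725), hair cortex and cuticle (0.428) and the Cdh13 cluster (0.342). Control levels there ran from 4.18 to 26.2 CPM, where the free RNA check, the Cd74 cluster, had 11.9 CPM in control (5.13 to 23.4) and 1.19 in TP. In the Ntn1 cluster, 6 of the 10 genes reached 50 UMIs, and all 6 had an interval above 1, against 11.6% of 9758 genes, while Sox9, Nfatc1, Foxc1 and Cd34 had too few UMIs to count. They were Lhx2, Tcf7l1 (TP/Con 1.66), Tcf7l2, Nfib, Tbx1 (1.91) and Runx1 (1.21). Markers of other classes moved in the cluster too: the 6 outer bulge markers summed to 424 and 634 CPM (3 of 6 higher in TP; Lgr5 at 225 and 414), the 6 upper hair follicle markers to 175 and 276 (6 of 6) and the 6 basal IFE markers to 1247 and 1696 (5 of 6). Their part in these ratios was not tested.

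In the histone cluster, 6 of the 7 members that reached 50 UMIs had an interval above 1 (20.1% of 11026 genes) and 5 were 2-fold higher (3.43%). Sox9 reached 50 UMIs through TP alone, so the filter itself favoured its higher value, and without it the counts are 5 of 6 and 4. Sox9 had 9 UMIs in control (1.27 CPM) and 291 in TP (28 CPM). Tbx1 was at 7.45 and 35.5 CPM (TP/Con 4.76, 3.56 to 6.47), Tcf7l1 at 11.7 and 41.2 (TP/Con 3.53, 2.79 to 4.52), Lhx2 at 43 and 148 and Tcf7l2 at 90.3 and 186 (TP/Con 2.06, 1.89 to 2.26). Outer bulge markers moved with them: the 6 markers summed to 198 and 419.9 CPM, 5 of 6 were higher in TP, and Lgr5 was at 35.1 and 159. Upper hair follicle markers did so as well, at 225 and 682 CPM (6 of 6). In TP, the 122 cells of this cluster with a Sox9 UMI had 134 CPM of Tbx1 against 18 in the other 738, and 401 against 116 of Lgr5. Among cells without a Sox9 UMI, TP/Con was 2.81 for Lhx2 (2.47 to 3.21), 2.44 for Tbx1 (1.77 to 3.4), 2.45 for Tcf7l1 (1.9 to 3.18) and 1.8 for Tcf7l2 (1.64 to 1.98). The free RNA checks had 6.48 and 4.62 CPM of Tbx1, 11.9 and 2.38 of Tcf7l1, 92.1 and 25 of Tcf7l2 and 11.9 and 1.19 of Lhx2. In the histone cluster Tbx1, Tcf7l1 and Tcf7l2 lay near their checks in control and above them in TP. The size of their ratios is therefore not read as a difference in expression. The part of a different mix of dividing cells was not tested.

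The relatives and partners of these factors were a list of 19 genes, and all of them reached 50 UMIs. Over all kept cells 1 was 2-fold higher and 2 were 2-fold lower, against 8.3% and 10.2% of all genes tested, with a median log2 ratio of −0.04 against −0.23. The highest TP/Con were those of Nfatc2 (8.0 and 20.8 CPM, 2.61), Foxc2 on few UMIs (23 and 43; TP/Con 1.5, 0.884 to 2.61) and Ldb2, a cofactor of LIM homeobox proteins (26 and 38.4 CPM, 1.48). The lowest were those of Runx2 (74.3 and 26.9 CPM, 0.363), Lef1, a partner of β-catenin in the growing hair (702 and 290.5, 0.414), and the corepressor Tle3 (78.8 and 48.4, 0.614). In outer bulge cells 15 reached 50 UMIs, with a median of −0.02 against −0.10 for all genes, of which 2.38% were 2-fold higher and 3.55% lower. There Ldb2 was 2-fold higher (5 and 72 UMIs; TP/Con 3.1, 1.27 to 9.84), followed by Tle1 (1.41) and Tcf7 (1.36). Ldb2 reached 50 UMIs through TP alone, so the filter itself favoured its higher value. Runx2 was 2-fold lower (36.9 and 13.5 CPM; TP/Con 0.366, 0.262 to 0.517), followed by Tle3 (0.571) and Nfatc3 (0.705).

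Another 20 genes known from follicle stem cells and their niche had a median log2 ratio of 0.31 over all kept cells, against −0.23 for all genes, with 1 at least 2-fold higher and 1 lower, against 8.3% and 10.2%. Id1, a BMP target, had the highest TP/Con (57.8 and 118 CPM, 2.04), followed by Itga6, an integrin of basal cells (134 and 262, 1.96), and Lrig1, a stem cell marker of the upper follicle (40.5 and 76.3, 1.88). The WNT inhibitor Sfrp1 was lowest (225 and 91.4 CPM, 0.406), then Foxp1 (814 and 472, 0.58) and the hedgehog target Gli1 (29.6 and 18.2, 0.616). In outer bulge cells 19 reached 50 UMIs, with a median of 0.11 against −0.10 for all genes, and 2 were 2-fold higher and 0 lower, against 2.38% and 3.55%. Gli1 was at 31.1 and 71.1 CPM there (TP/Con 2.29, 1.7 to 3.14), the opposite of its direction over all cells. Lgr6, a receptor of follicle stem cells near the gland, was at 93.2 and 189 CPM (TP/Con 2.03, 1.71 to 2.43) and Cd200 at 59.5 and 96 (TP/Con 1.61, 1.29 to 2.03). The lowest were Id2 (0.745), Col17a1 (0.784) and Vdr (0.798). In the outer bulge class the 6 upper hair follicle markers moved too, at 1885 and 3314 CPM (6 of 6 higher in TP). Their part in the outer bulge ratios of both lists was not tested.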

How the data were processed

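The deposited files hold whole-number UMI counts per gene and cell barcode, 1 matrix for each of 2 droplet libraries (Con, TP), made by the authors with Cell Ranger 8.0.1 on mm10, per the submitters' processing notes. The skin had been digested with collagenase and cleaned over Percoll, steps that can favour some cell types over others. Another treatment arm of the study was not analysed here. Barcodes with 200 to 8000 genes and under 10% mitochondrial UMIs were kept (42244 of 45709 in Con, 20045 of 25931 in TP), and 7.5% of each library was then removed as likely doublets by a score of similarity to simulated pairs (3168 and 1503). Libraries were integrated and clustered in Seurat 5.3.0 (R 4.3.3; 2000 variable genes, 30 components, resolution 1). Clusters were named from 112 marker genes, and 41.5% of Con and 26% of TP cells stayed unnamed. 1 unnamed cluster with 33 Con cells was left out as under 50 cells.

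UMIs were summed per population and library and given per 1000000 UMIs (CPM). Intervals were exact at 95%: Poisson for levels, conditional on the sum for ratios, and Clopper-Pearson for shares, while shares of 0 carry 3 counts over the cells as an upper limit. They cover counting error only, and the 15 mice of a group, being pooled, gave no replicate spread. Background counts took in genes whose UMIs, added over Con and TP, came to 50 or more. Shares used cells thinned to 1000 UMIs. The statistics were tested on simulated data. Checks on free RNA were the inner root sheath (Nfatc1, Tbx1, Cd34), endothelial cells (Runx1) and, since no lymphocyte class could be named at resolution 1 (1 cluster could at 1.5), the Cd74 cluster for the other genes, a choice made after the data were seen.

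The members, gene lists and markers were chosen with earlier results of these data known. Named are the 10 members, the 3 highest and 3 lowest ratios in each list, and the 2 genes most like each member by Pearson's r of log2(CPM + 1) among genes with at least 200 UMIs. Alternatives were TMM (edgeR 4.0.16), DESeq2 1.42.0 size factors, fixed cluster shares, a mean of ln values, other doublet and barcode filters, resolutions and depths. Positions and start regions are RefSeq, GRCm38.p6. At 8 of the 10 loci another annotated gene overlaps, and its reads may not have been told apart. Python 3.11.15, numpy 2.4.6, scipy 1.17.1, pandas 2.3.3 and scikit-learn 1.9.0 were used.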

Additional observations from a re-analysis of the deposited data

Results flagged for a closer look

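Among populations with at least 50 UMIs, in 7 of the genes (Lhx2, Nfatc1, Tcf7l1, Tcf7l2, Nfib, Tbx1 and Runx1) the interval of TP/Con lay above 1 in some populations and below 1 in others. In 3 of them TP/Con was at least 2-fold from 1 both ways, but the lowest ratio of each came from a population at a level near or under the one used as a check on RNA free in the droplets, and is not read as lower expression. No share of all genes that did either is given beside the counts of 7 and 3, so they are not read as particular to the members. Lhx2 in hair cortex and cuticle (26.2 and 11.2 CPM; TP/Con 0.428, 0.174 to 0.919) and Runx1 in melanocytes (85.8 and 36.8; TP/Con 0.429, 0.295 to 0.613) were also 2-fold lower, at values above their checks in both libraries but with intervals that overlapped them. Runx1 was 2-fold lower in dermal fibroblasts and in the Cdh13 cluster as well. Lhx2 was higher in TP in the histone cluster (43 and 148 CPM; TP/Con 3.45, 3.05 to 3.91) and had a ratio below 1 in the Cdh13 cluster (12.9 and 4.43; TP/Con 0.342, 0.182 to 0.623), where the check, the Cd74 cluster, had 11.9 and 1.19 CPM (8 and 1 UMIs). Tcf7l2 was higher in the histone cluster (90.3 and 186 CPM; TP/Con 2.06, 1.89 to 2.26) and had a ratio below 1 in the Cd74 cluster (92.1 and 25; TP/Con 0.272, 0.157 to 0.452), which is itself the check, and which the histone cluster matched in control. Runx1 was higher in the Cd74 cluster (206 and 532 CPM; TP/Con 2.58, 2.13 to 3.14) and had a ratio below 1 in suprabasal IFE (30.6 and 10.2; TP/Con 0.333, 0.294 to 0.376), under its check, endothelial cells, at 60.8 and 23.1 CPM. The 8 myeloid markers summed to 3868 and 14630 CPM in the Cd74 cluster (8 of 8 higher in TP). At resolution 1.5 the immune cells fell apart into a lymphocyte-like cluster led by Cd3g, with 263 control and 97 TP cells, a Cd74-led cluster with 102 and 200, and a Ccl8-led one with 64 and 217. The part of this mix of cells in the Cd74 cluster's values was not tested. With 1 library per group the difference was not tested in any of them.

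Barcodes that failed the filters, 3465 in control and 5886 in TP, nearly all for mitochondrial UMIs, held the genes too. In them Sox9 was at 5.43 and 27.5 CPM (TP/Con 5.07, 3.41 to 7.82), Nfatc1 at 4.62 and 21 (TP/Con 4.55, 2.96 to 7.33), Tcf7l1 at 11.2 and 51.6 (TP/Con 4.59, 3.48 to 6.16), Tbx1 at 6.03 and 18.6 (TP/Con 3.08, 2.09 to 4.69) and Cd34 at 1.0 and 5.12 (TP/Con 5.09, 2.05 to 16.3). These 5 had intervals above 2 there and were higher in TP among the kept cells too, with lower ratios except for Cd34, at 8.64. No share of all genes with such an interval is given for the removed barcodes, so the count is not read as particular to the members. Nfib differed, with TP/Con 1.58 in the removed barcodes (1.52 to 1.65) and 0.966 in the kept cells, and Tcf7l2 was at 1.81 and 1.03. In the removed barcodes TP/Con was 1.67 for Lhx2 (1.36 to 2.05), 2.75 for Foxc1 (1.63 to 4.9) and 0.618 for Runx1 (0.575 to 0.665).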

How the results depend on the processing

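Over all kept cells, 10 results were recomputed in 80 values. Of these, 17 stayed within the main interval, 56 lay outside it on the same side of 1, and 7 reversed. Within populations, 52 results gave 283 values, of which 196 stayed, 82 lay outside the interval and 5 reversed. A value that crossed 1 was counted as reversed only where the main interval left out 1. TP/Con of Tcf7l2 over all cells turned to 0.988 with all deposited barcodes, 0.952 without doublet removal and 0.846 without the outer bulge. That of Nfib turned to 1.15 with TMM, 1.17 with DESeq2 size factors, 1.1 with control cluster shares and 1.11 as a mean of ln values. As a mean of ln values, 10 members were higher in the outer bulge instead of 6, with Nfatc1 at 1.15, Tcf7l1 at 1.06, Tbx1 at 1.26 and Cd34 at 1.34, and Tcf7l2 in dermal fibroblasts turned to 1.05. No share of all genes is given for that setting. With 15% of barcodes removed as doublets, Tcf7l2 in dermal fibroblasts turned to 1.08 and Tbx1 in endothelial cells to 0.872. The cause was not tested. With no minimum of UMIs, 7116 genes differed 2-fold in place of 3258, since more genes of few counts entered. Sox9 over all cells ranged from 1.68 to 5.16 and Cd34 from 1.69 to 10.5, each above 1 throughout. Unnamed clusters have no values at the other resolutions. No paired analysis was possible because each group had a single library, and for the same reason no replicate could be left out. Depth limits the levels of Sox9, Foxc1, Tbx1 and Cd34 outside their main populations, which rest on few UMIs.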
